A study of Mus musculus with 6 samples.

Results

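Integrins are the cell-surface receptors that hold cells to the surrounding matrix, and laminins, nidogens and heparan sulfate proteoglycans are main parts of the basement membrane, the sheet of matrix on which endothelial cells rest. The genes described here are every row of the deposited table whose symbol is an integrin α or β chain (Itga or Itgb followed by 1 or 2 characters), a laminin α, β or γ chain, or Nid1, Nid2, Hspg2 or Agrn. This gave 36 of 13595 genes, namely 14 integrin α chains, 8 integrin β chains, the β-like gene Itgbl1, 4 laminin α, 3 laminin β and 2 laminin γ chains, and 4 nidogen or proteoglycan genes. A further 7 mouse genes of these names, Itgad, Itgae, Itgal, Itgax, Itgb2l, Lama1 and Lamc3, were not analysed here.

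Poly(A) RNA was sequenced from cells positive for CD31, an endothelial surface protein, that were isolated from the livers of C57BL6/J mice aged 4 weeks and then cultured. Indoxyl sulfate, a tryptophan metabolite that activates the aryl hydrocarbon receptor (AHR), had been added at 100 µM to every culture, and the cells had spent 6 hours in hypoxia with nutrient deprivation. The groups were 3 libraries labelled male and 3 labelled female, each numbered 4, 5 and 6, and cells given the DMSO control were not analysed here. The series asks how endothelial gene expression under AHR activation and hypoxia differs between the sexes, and the effect of the treatment itself cannot be told apart from what all 6 libraries share. The labels do not say whether the libraries of a group came from separate mice, isolations or culture wells, so the p-values may measure technical spread only, and a batch that followed the sex label cannot be told apart from it.

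An integrin is a pair of 1 α and 1 β chain, and the pair sets the ligand: α1β1, α2β1, α10β1 and α11β1 bind collagens, α3β1, α6β1, α7β1 and α6β4 bind laminins, α5β1, α8β1, αIIbβ3 and the αv pairs bind proteins with an RGD motif such as fibronectin, vitronectin or the latent peptide of TGF-β. A laminin is a trimer of 1 α, 1 β and 1 γ chain, in which the α chain carries the main integrin-binding site. Vascular basement membranes are built mainly on the laminin chains α4 and α5, joined to collagen IV by nidogens and to perlecan (Hspg2) and agrin (Agrn), while the α2 chain is best known from muscle and peripheral nerve. The liver sinusoid is unusual in having no continuous basement membrane.

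The deposited values are normalised read counts, from which the whole reads could be recovered, and the libraries held 22303270 to 31189363 reads. Xist read 234 to 324 in the female-labelled libraries and 0.124 to 0.458 in the male-labelled ones, but the Y-linked genes Ddx3y, Uty, Eif2s3y and Kdm5d were also present in every female-labelled library, and the group means of these genes were 51.3% to 91.5% of those of the male-labelled libraries. The sex names below are therefore those of the labels. Male replicate 4 stood apart from its group: its genes differed from male replicates 5 and 6 with an SD of 0.324 and 0.325 on the log2 scale, against 0.161 between those 2 and 0.173 to 0.216 among the female-labelled libraries, while pairs across the groups gave 0.965 to 1.039.

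Markers of cell types moved with the label as well. In the counts here, higher and lower mean called by limma at an adjusted p under 0.05, as defined below. Of all genes tested 34.6% were called in each direction, so these counts alone do not set the markers apart. Of 11 endothelial markers 8 were lower and 1 was higher in the female-labelled libraries, the summed level being 2265 to 2373 in the male-labelled libraries against 1207 to 1263, and Pecam1, which encodes CD31, had means of 407 and 73.9. The 8 sinusoidal endothelial markers summed to 508 to 549 against 18.1 to 21.2, with 3 tested and all 3 lower, and with Stab2, Clec4g, Fcgr2b and Oit3 below 1 everywhere. Lyve1 carried that sum (means 498 and 4.99), and without it the other markers summed to 32.3 to 38.7 against 13.7 to 16.1. Stellate, mural and fibroblast markers (11 of 12 in the table) summed to 888 to 1003 against 2041 to 2479, with 3 higher and 7 lower. The rise was carried by Acta2 with means of 78.6 and 1694, the former raised by male replicate 4 (134, against 56.4 and 45.9 in male replicates 5 and 6). Pdgfrb had means of 133 and 14.3. Cholangiocyte markers (6 genes) summed to 1643 to 2492 against 512 to 613, a sum made up mostly of Spp1, Krt19 and Sox9. Of these 6, 4 were lower, Krt7 was higher (means 1.84 and 9.19) and Epcam was below 1 everywhere. Mesothelial markers (5 genes) summed to 17.7 to 21.3 against 361 to 401, mostly Msln, and the 4 tested were all higher. Of these Upk3b, Wt1 and Upk1b reached a value of 1, needed for testing, only in the female-labelled libraries. Hepatocyte markers (4 of 6 in the table) were all below 1. In such bulk RNA fewer cells of a type and less RNA per cell cannot be told apart, and the part of these cell types in the results below was not tested.

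Most integrin and basement membrane genes differed between the groups, more of them downwards than upwards. Itgb3, Itga2b, Itgb4 and Itgb8 were the furthest down and Lama2, Itgb5 and Itgb1 among the furthest up in the female-labelled libraries. A gene was called when limma on log2(value + 1) gave a Benjamini-Hochberg adjusted p under 0.05. Of the 36 genes, 33 reached a value of 1 in at least 3 libraries and were tested, and 28 of these were called, 11 higher and 17 lower in the female-labelled libraries. Over all 12568 genes tested 69.3% were called, 34.6% higher and 34.6% lower, so a call by itself sets none of these genes apart. The groups did not overlap for 27 of the 33 genes, against 74.1% of all genes. A log2 fold change of at least 1 in either direction accompanied the call in 15 of the 33, 4 higher and 11 lower, against 20.6% of all genes. The median absolute log2 fold change was 0.84 over the 33 genes and 0.46 over all genes, and the median signed value was -0.34 against 0.01. The authors' deposited table gives a false discovery rate under 0.05 for 15 of the 36 genes, 4 higher and 11 lower, against 25.8% of all its genes. By family these were 3 of 14 integrin α chains, 7 of 8 β chains, 5 of 9 laminin chains and 0 of the 4 nidogen and proteoglycan genes.

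**Figure D1:**
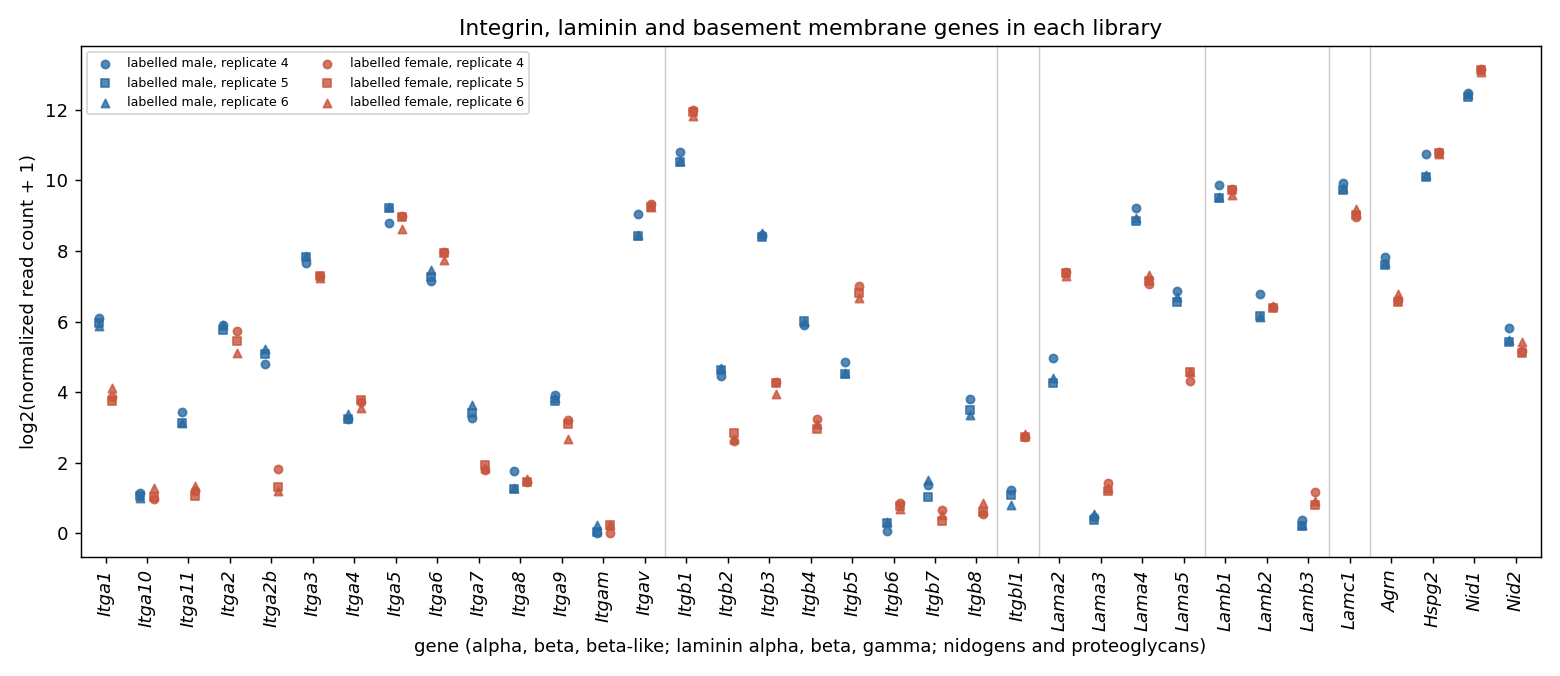
Values of 35 of the 36 genes in each of the 6 libraries, as log2(normalised read count + 1) on the vertical axis, with genes grouped by family along the horizontal axis, blue for male-labelled libraries, red for the female-labelled ones and the marker shape giving the replicate number. Itgb3 is the gene with the widest gap, and the circles of male replicate 4 lie apart from its group for Itga5, Itgav, Hspg2 and Lamb2.

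All 7 tested β chains were called, 2 higher and 5 lower in the female-labelled libraries, against 69.3% of all genes called. Their median absolute log2 fold change was 2.19, against 0.46 over all genes. Itgb1, on chromosome 8, encodes the β1 chain that most α chains can join. Its normalised read counts were 1771, 1473 and 1498 in male replicates 4, 5 and 6, and 4044, 3897 and 3634 in female replicates 4, 5 and 6, the order used for all values below. Every female-labelled library lay above every male-labelled library, a rise of 1.29 on the log2 scale (SE 0.09, limma adjusted p = 6.28e-06). Itgb5, whose β5 chain pairs with αv and binds vitronectin, read 27.8, 22.1 and 22.4 against 128, 112 and 101. It rose by 2.19 on the log2 scale (SE 0.11, limma adjusted p = 9.03e-07), and the groups were far apart.

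Itgb3, on chromosome 11, encodes the β3 chain of the αv integrin of growing vessels and of the platelet fibrinogen receptor. It read 347, 334 and 361 in the male-labelled libraries and 18.6, 18.2 and 14.3 in the female-labelled ones, so that its mean was 20.4-fold higher in the former. Its log2 fold change, -4.28 (SE 0.10, limma adjusted p = 2.04e-08), was the most negative of the 33 genes. Itgb4, the β4 chain that joins α6 in epithelial hemidesmosomes, read 58.9, 64.2 and 62.6 against 8.38, 6.85 and 7.50 (log2 fold change -2.88, SE 0.09, limma adjusted p = 8.61e-08). Itgb8, the β8 chain of an αv integrin that releases active TGF-β, read 13.0, 10.2 and 9.32 against 0.457, 0.530 and 0.807 (log2 fold change -2.88, SE 0.15, limma adjusted p = 9.44e-07). In all 3 genes the groups stood well apart, with the widest relative spread within a group in Itgb8 among the female-labelled libraries. With edgeR on the recovered reads the log2 fold change of Itgb8 was -4.19, against -3.04 for Itgb4, and the mean of Itgb8 was 18.1-fold higher in the male-labelled libraries. Of the epithelial cholangiocyte markers Krt19 was lower (means 461 and 116) and Krt7 higher in the female-labelled libraries, and their part in the fall of Itgb4 was not tested.

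Itgb2, the β2 chain of leukocyte integrins, read 21.2, 23.8 and 24.5 against 5.15, 6.19 and 5.41, again without overlap (log2 fold change -1.88, SE 0.10, limma adjusted p = 1.36e-06). The leukocyte marker Ptprc, the only 1 of 7 such markers in the table, was at 0 in the 3 male-labelled libraries and at 0.142 to 0.332 in the female-labelled ones, and the summed macrophage markers (7 of 9 in the table, with C1qa, C1qb, C1qc, Marco and Cd5l below 1 everywhere) were 7.34 to 9.57 against 11.8 to 14.1. The part of leukocytes in the fall of Itgb2 was not tested. Itgam, an α partner of β2, was at 0 to 0.190 in all libraries, where 3 reads are worth 0.106 to 0.142. The weakly expressed Itgb7, the β chain of a gut-homing integrin of lymphocytes, was also lower (means 1.48 and 0.425, log2 fold change -0.79, limma adjusted p = 0.00225). Only its male-labelled libraries reached the value of 1 needed for testing. With at least 10 reads required in every library it was not tested. With edgeR on the recovered reads its log2 fold change was -1.79, since adding 1 compresses differences at such levels. Itgb6, an epithelial partner of αv, was below the level for testing at 0.0415 to 0.247 and 0.617 to 0.830, a gap without overlap at 1 to 20 reads per library. The β-like Itgbl1, a secreted protein with integrin-like repeats, read 0.742 to 1.37 against 5.61 to 6.08 (log2 fold change 1.71, limma adjusted p = 1.07e-05, or 2.41 with edgeR).

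Among α chains 13 of 14 were tested, and 3 were higher, 7 lower and 3 not called. The share called was 76.9%, against 69.3% of all genes. The 3 that rose were Itgav, Itga6 and Itga4. Itgav, the αv chain, read 532, 344 and 351 against 646, 609 and 609 (log2 fold change 0.63, SE 0.15, limma adjusted p = 0.00583). The groups did not overlap, but male replicate 4 lay well above the other libraries of its group, and without it the log2 fold change was 0.84. Itga6, a laminin receptor chain, read 140, 154 and 174 against 250, 244 and 216 (log2 fold change 0.60, SE 0.09, limma adjusted p = 5.09e-04). Itga4, whose α4 chain binds VCAM1 and fibronectin, read 8.54, 8.43 and 9.43 against 12.1, 12.7 and 10.7 (log2 fold change 0.39, SE 0.10, limma adjusted p = 0.00906). These are modest shifts next to those of the β chains, and in each the lowest female-labelled library was above the highest male-labelled one. None of the 3 has a false discovery rate under 0.05 in the authors' deposited table (0.208 for Itgav, 0.374 for Itga6 and 0.441 for Itga4).

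The α chains that fell included the collagen receptors. Itga1 read 67.8, 61.3 and 57.9 against 13.6, 12.5 and 16.4 (log2 fold change -2.07, SE 0.11, limma adjusted p = 1.05e-06). Itga11, another collagen receptor chain, known from fibroblasts, had means of 8.41 and 1.30 (log2 fold change -2.03, or -2.70 with edgeR). Itga2, the third collagen receptor chain, read 59.2, 53.4 and 58.5 against 52.7, 43.0 and 33.7, with the highest female-labelled library just below the lowest male-labelled one (log2 fold change -0.42, SE 0.14, limma adjusted p = 0.0288). That call was lost without male replicate 6 (-0.40, adjusted p = 0.0703), without female replicate 5 (-0.43, adjusted p = 0.0688), without female replicate 6 (-0.26, adjusted p = 0.0698) and under quantile normalisation (-0.36, adjusted p = 0.051), all by limma. Itga10 stayed near 1 in all libraries and was not called (limma adjusted p = 0.858).

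Of the laminin-binding α chains, Itga3 read 203, 229 and 232 against 154, 156 and 149 (log2 fold change -0.52, SE 0.07, limma adjusted p = 1.74e-04), and the groups were apart. Itga7, best known from muscle, had means of 9.93 and 2.63 (log2 fold change -1.58, limma adjusted p = 1.02e-05). Itga9, which binds tenascin C and osteopontin and is known from lymphatic vessels, read 14.0, 12.5 and 13.3 against 8.30, 7.56 and 5.41 (log2 fold change -0.84, SE 0.15, limma adjusted p = 9.82e-04). Itga7 and Itga9 were thus both lower in every female-labelled library.

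Itga5, the α chain of the main fibronectin receptor, read 445, 589 and 602 against 504, 497 and 392. The groups overlapped and the difference was not called (log2 fold change -0.23, SE 0.14, limma adjusted p = 0.170). Male replicate 4 was the low library of its group, and without it the log2 fold change was -0.37 with an adjusted p of 0.00555. Itga8, another RGD-binding chain, read 1.41 to 2.41 and was not called (limma adjusted p = 0.845).

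Itga2b, the αIIb chain whose only known partner is β3 and which is known from megakaryocytes and platelets, read 27.0, 32.7 and 36.5 against 2.53, 1.50 and 1.28. The mean was 18.1-fold higher in the male-labelled libraries (log2 fold change -3.59, SE 0.18, limma adjusted p = 7.94e-07), with no overlap. Its ratio to Itgb3 per kb of transcript stayed at 0.131 to 0.170 and 0.139 to 0.229. Of 4 platelet markers only Pf4 and Gp1ba were in the table, and both were lower too. Their summed level was 7.42 to 9.85 against 2.12 to 2.37, and their part in the fall of Itga2b and Itgb3 was not tested.

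**Figure D2:**
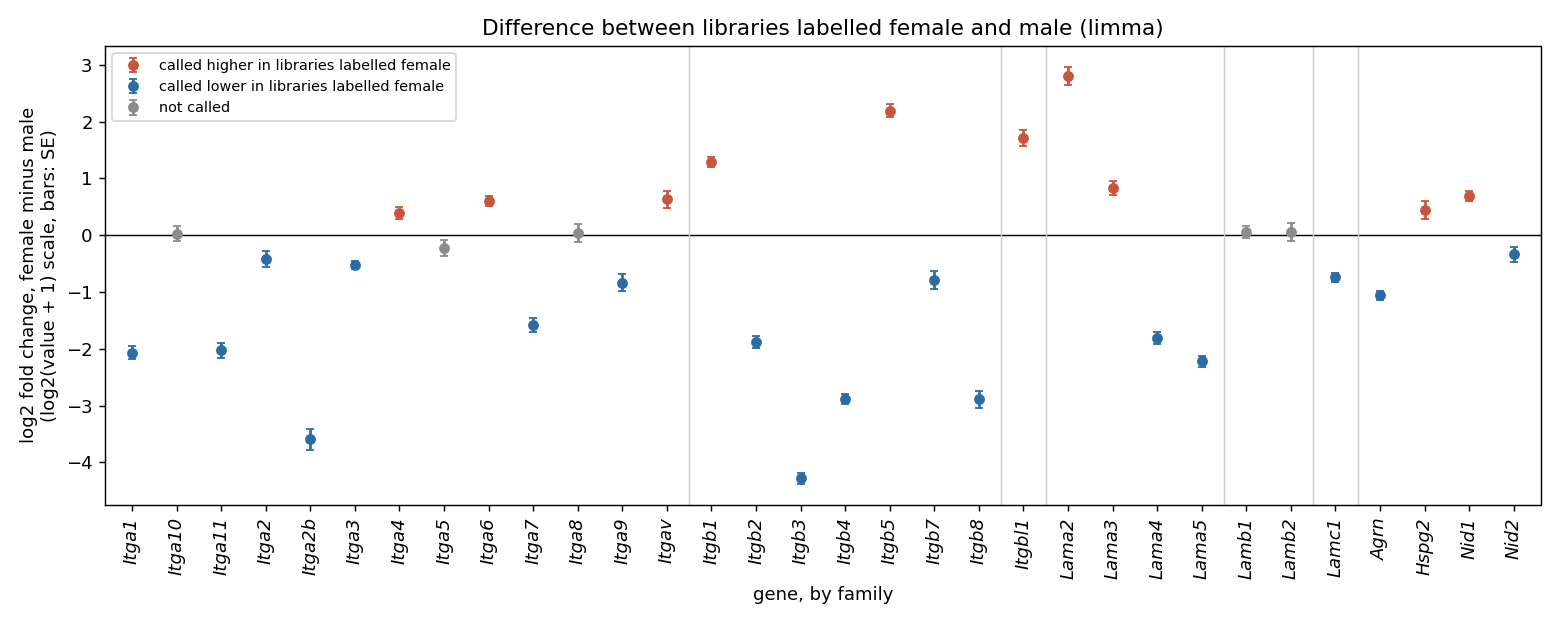
Log2 fold change (female minus male label, on the log2(value + 1) scale, vertical axis) from limma for 32 of the 33 tested genes, grouped by family along the horizontal axis, with bars for the SE and colour for the call. The 27 called genes plotted are red (10 higher) or blue (17 lower), and the laminin β chains lie at the zero line between α chains with changes from -2.22 to 2.80.

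The β chains that share αv can be set side by side on a common scale. Dividing each value by transcript length in kb (GENCODE M21, the transcript with the longest coding sequence) allows levels of different genes to be set side by side. On this scale Itgb1 made up 85.6% ± 1.07 (SD, n = 3) of the summed β partners of αv in the male-labelled libraries and 96.2% ± 0.233 in the female-labelled ones. Itgb3 went from 12.5% ± 1.15 to 0.280% ± 0.0251, and Itgb5 from 1.63% ± 0.0641 to 3.53% ± 0.218. The ratio of Itgb3 to Itgb5 per kb was 6.60, 7.99 and 8.52 in the male-labelled libraries, and 0.0772, 0.0858 and 0.0747 in the female-labelled ones. The order of these 2 β chains was therefore opposite in the groups, in every library and with coding length in place of transcript length. The summed level of the β partners rose from 484 ± 44.8 to 1052 ± 59.0 per kb, while Itgb1 alone rose from 414 ± 43.4 to 1011 ± 54.4.

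The α partners of β1 summed to 288 ± 11.9 and 295 ± 22.6 per kb, a difference within the spread, while Itgb1 itself rose. The ratio of Itgb1 to the sum of its α partners was 1.68, 1.34 and 1.31 in the male-labelled libraries and 3.40, 3.37 and 3.54 in the female-labelled ones. Within the sum Itga5 took 43.1% ± 5.41 and 35.9% ± 2.28, Itgav 20.3% ± 6.11 and 30.0% ± 1.87, Itga6 13.0% ± 0.906 and 19.3% ± 0.0928, and Itga3 16.3% ± 0.624 and 11.1% ± 0.645. Itga6 thus passed Itga3 in the female-labelled libraries. Whether Itga5 or Itgav led there depended on the length used: per kb of coding sequence Itgav took 40.6% and Itga5 29.9%. The ratio of Itga6 to Itgb4 per kb rose from 3.55, 3.58 and 4.16 to 44.5, 53.3 and 42.9, so that in both groups α6 transcripts exceeded those of β4.

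**Figure D3:**
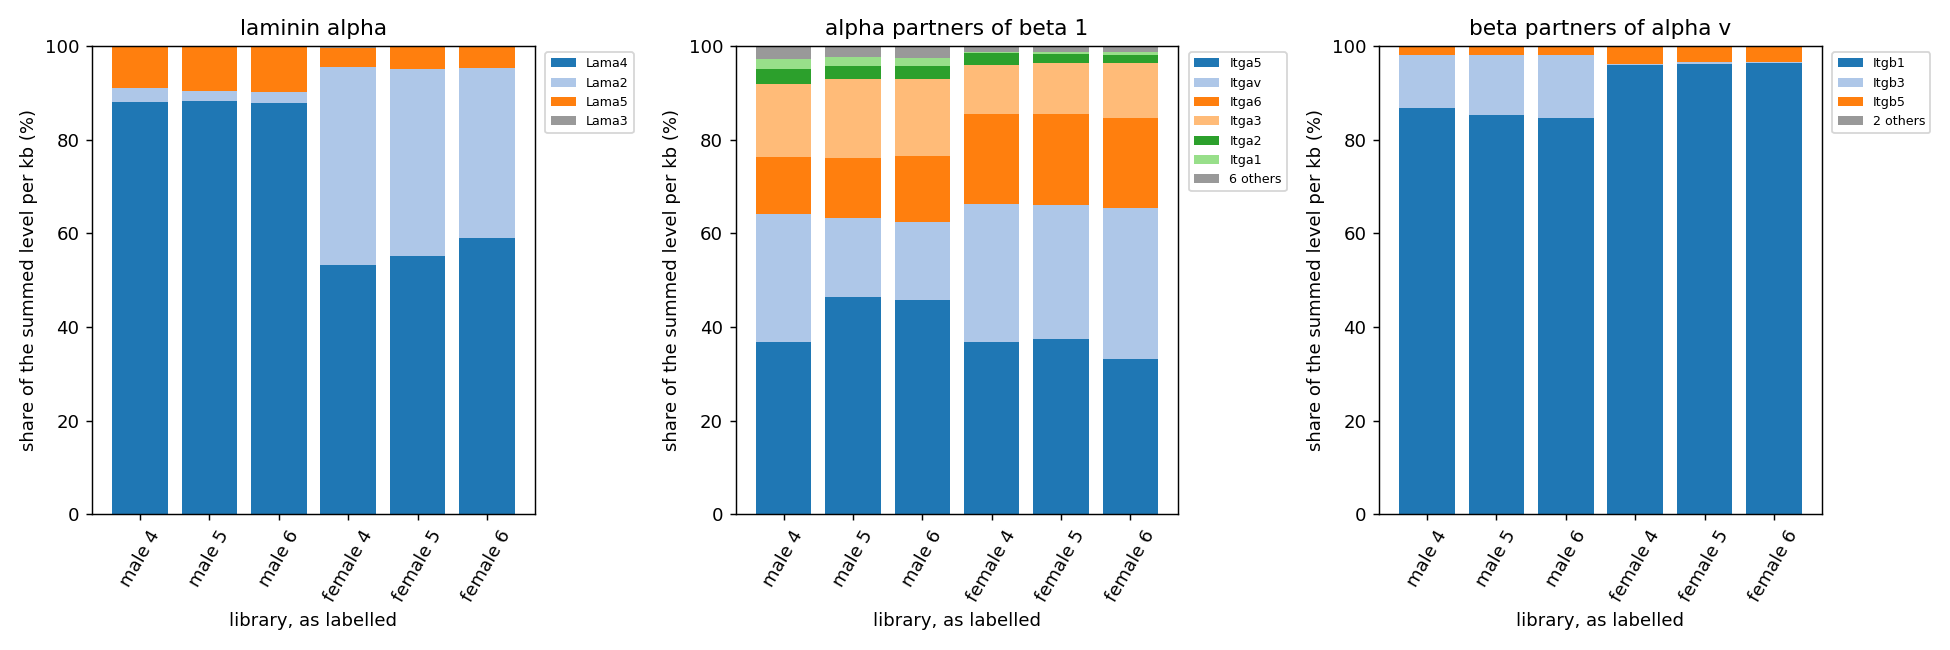
Share of each gene in the summed level per kb of transcript (vertical axis, %) in each of the 6 libraries (horizontal axis), for the laminin α chains, the α partners of β1 and the β partners of αv. Lama2 grows from 2.45% to 39.5% of the laminin α sum and Itgb3 shrinks from 12.5% to 0.280% of the β partners of αv, with the libraries of a group alike except for Itgav and Itga5 in male replicate 4.

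Of 24 known integrin pairs, 20 had both chains in the table and 15 had both chains called. Over all genes tested 69.3% were called, 34.6% in each direction, so these counts of pairs do not by themselves set integrin chains apart. Both chains rose in 4 pairs, α6β1, αvβ1, αvβ5 and α4β1, and both fell in 1, αIIbβ3. The calls are those of limma, and the authors' deposited table has no integrin α chain higher at a false discovery rate under 0.05. In the other 10 the chains went in opposite directions. In 6 of these an α chain fell while the shared Itgb1 rose (α1, α2, α3, α7, α9 and α11 with β1), and in 4 the α chain rose while β fell (α6β4, αvβ3, αvβ8 and α4β7). These pairs share chains, 6 of the 10 resting on the single rise of Itgb1, and are not independent of each other. By ligand, the laminin-binding pair α6β1 had both chains higher, whereas α3β1 and α7β1 were split, and none of the collagen-binding pairs had both chains higher.

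**Figure D4:**
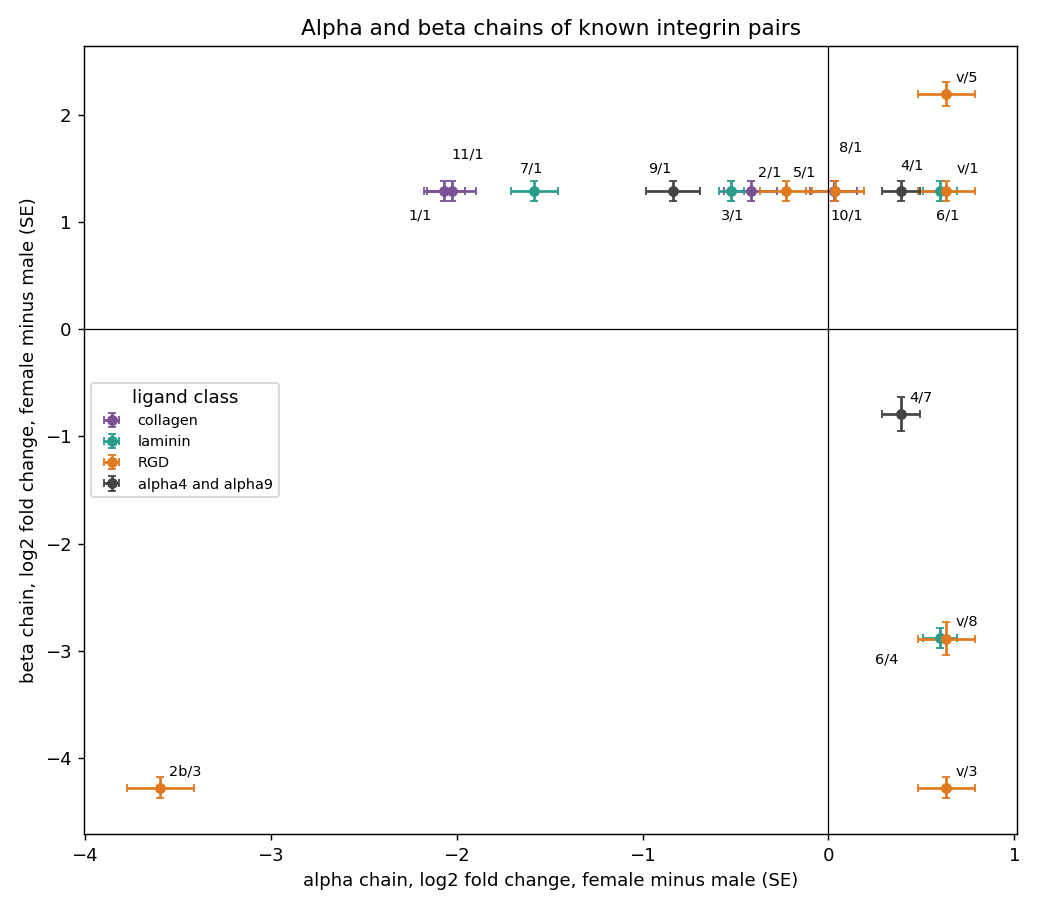
Log2 fold change (female minus male label) of the α chain (horizontal axis) against that of the β chain (vertical axis) for the 18 known integrin pairs with both chains tested, with SE bars and colour for the ligand class. The pairs of β1 form a row at 1.29, αIIbβ3 stands alone at the lower left, and αv appears with 4 β chains whose changes run from -4.28 to 2.19.

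The laminin α chains also went in opposite directions. Lama2, on chromosome 10, read 30.6, 18.2 and 20.2 in the male-labelled libraries and 167, 164 and 156 in the female-labelled ones. It was the gene with the largest rise of the 33 (log2 fold change 2.80, SE 0.16, limma adjusted p = 1.87e-06), although male replicate 4 was above the others of its group. Lama4 read 592, 461 and 489 against 133, 142 and 160 (log2 fold change -1.82, SE 0.11, limma adjusted p = 1.79e-06). Lama5 read 115, 93.8 and 103 against 19.0, 22.6 and 22.7 (log2 fold change -2.22, SE 0.10, limma adjusted p = 4.21e-07). The chains typical of vessels were therefore lower and the α2 chain higher in every female-labelled library. Acta2 and the mesothelial marker Msln moved with Lama2. Acta2 read 45.9 to 134 in the male-labelled libraries, with male replicate 4 the highest, against 1513 to 1887 in the female-labelled ones. Msln read 17.1 to 20.6 against 299 to 358. The part of Acta2 and Msln in the rise of Lama2 was not tested. Of the 10 stellate, mural and fibroblast markers tested, the list that holds Acta2, 7 were lower in the female-labelled libraries, against 34.6% of all genes. Pdgfrb, Pdgfra and Dcn were among them. Lama3, an epithelial chain, was low but higher too (means 0.379 and 1.47, log2 fold change 0.84, limma adjusted p = 3.53e-04), and its log2 fold change with edgeR on the recovered reads was 1.93. Only its female-labelled libraries reached the value of 1 needed for testing, so its call is not independent of that filter.

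Per kb of transcript the summed laminin α level fell from 96.6 ± 13.1 to 42.9 ± 1.80. Lama4 led in both groups, with 88.1% ± 0.186 and 55.8% ± 2.92 of the sum. Lama2 went from 2.45% ± 0.363, the third place behind Lama5 at 9.46% ± 0.377, to 39.5% ± 3.04 and the second place, with Lama5 at 4.39% ± 0.296. The ratio of Lama4 to Lama2 per kb was 30.8, 40.3 and 38.5 in the male-labelled libraries and 1.26, 1.38 and 1.63 in the female-labelled ones. Lama4 and Lama5 kept closer proportions, with ratios of 9.73, 9.26 and 8.97 against 13.1, 11.9 and 13.2.

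The windows of 250 bases upstream of the gene start are shown for Itgb5, Itgb8, Lama2 and Lama5, the αv-partner and laminin α chains that moved furthest in opposite directions among those with an entry in the promoter table. They are RefSeq sequence of GRCm38.p6, 5′ to 3′ on the strand of the gene, in lower case with the core of the AHR response element (GCGTG, either strand) or of the hypoxia response element (ACGTG, either strand) in capitals. They lie at chr16:33829415-33829664 (plus strand, Itgb5), chr12:119238277-119238526 (minus strand, Itgb8), chr10:27616943-27617192 (minus strand, Lama2) and chr2:180225860-180226109 (minus strand, Lama5).
Itgb5: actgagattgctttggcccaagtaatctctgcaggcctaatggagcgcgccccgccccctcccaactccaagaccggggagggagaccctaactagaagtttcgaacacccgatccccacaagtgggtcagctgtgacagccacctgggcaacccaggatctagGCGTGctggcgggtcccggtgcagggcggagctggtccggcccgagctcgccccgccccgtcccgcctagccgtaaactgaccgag
Itgb8: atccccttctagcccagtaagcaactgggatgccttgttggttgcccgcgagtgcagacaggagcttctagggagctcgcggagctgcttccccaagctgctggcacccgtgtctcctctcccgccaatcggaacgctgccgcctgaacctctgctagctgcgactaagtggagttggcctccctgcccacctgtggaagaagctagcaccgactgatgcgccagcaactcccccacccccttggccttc
Lama2: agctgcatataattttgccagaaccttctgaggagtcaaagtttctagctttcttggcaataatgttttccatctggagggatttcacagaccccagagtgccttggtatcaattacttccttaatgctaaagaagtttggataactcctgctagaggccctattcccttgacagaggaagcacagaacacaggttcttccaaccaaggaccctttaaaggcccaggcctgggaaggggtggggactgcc
Lama5: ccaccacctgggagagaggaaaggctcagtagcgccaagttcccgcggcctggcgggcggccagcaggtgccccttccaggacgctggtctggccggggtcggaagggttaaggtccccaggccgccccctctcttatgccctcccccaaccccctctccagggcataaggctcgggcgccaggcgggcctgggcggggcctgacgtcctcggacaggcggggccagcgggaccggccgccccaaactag
Itgb5 holds 1 AHR core, 86 bases upstream of the start, and the other windows hold neither core. The AHR core occurs in 28.2% of all 32851 windows of this length and in 7 of the 30 windows of 26 of the 36 genes. The hypoxia core occurs in 16.6% of all windows and in 1 of the 30, that of Itga9. The 2 cores differ only in their first base, so no position on a strand can match both, and a match is a description of the letters, not a bound site. The base composition of the 2 laminin windows differed, with 47.2% G and C in Lama2 and 72.4% in Lama5.

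The laminin β chains did not move with the α chains. Lamb1 read 930, 720 and 735 against 869, 841 and 764, and Lamb2 read 109, 71.0 and 68.5 against 84.9, 82.0 and 86.5. Both overlapped between the groups and neither was called (log2 fold changes 0.06 and 0.06, SE 0.11 and 0.16, limma adjusted p = 0.628 and 0.756). Male replicate 4 was the highest library for both, and without it limma called both higher, with log2 fold changes of 0.18 and 0.27. Their ratio per kb was 9.53 ± 1.11 and 9.52 ± 0.803. Lamb3, the epithelial β3 chain of laminin, was too low to test, with 0.153 to 0.290 against 0.751 to 1.25, and it has a false discovery rate of 0.0179 in the authors' deposited table.

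The γ1 chain Lamc1, present in nearly all laminins, read 965, 852 and 883 against 503, 523 and 588, without overlap (log2 fold change -0.74, SE 0.08, limma adjusted p = 6.25e-05). By trimer, the 4 laminins formed by Lama4 or Lama5 with Lamb1 or Lamb2 and Lamc1 had a lower α and a lower γ chain beside an uncalled β chain. The 2 laminins of Lama2 with the same β and γ chains had a higher α and a lower γ chain.

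The 4 nidogen and proteoglycan genes were all called by limma, 2 in each direction, against 69.3% of all genes called. However, 0 of the 4 have a false discovery rate under 0.05 in the authors' deposited table. Nid1, which bridges laminin γ1 and collagen IV, read 5656, 5215 and 5591 against 9094, 8928 and 8545. Its groups were apart (log2 fold change 0.69, SE 0.09, limma adjusted p = 1.64e-04), and per kb it had the highest level of the 36 genes in both groups, at 901 ± 39.1 and 1454 ± 46.3. Nid2, its relative, read 55.9, 41.8 and 43.5 against 34.9, 33.9 and 41.8, so that the groups nearly touched (log2 fold change -0.34, SE 0.13, limma adjusted p = 0.0397). The call of Nid2 was lost without male replicate 4 (-0.21, adjusted p = 0.0554), without female replicate 4 (-0.30, adjusted p = 0.121), without female replicate 5 (-0.28, adjusted p = 0.134) and under quantile normalisation (-0.27, adjusted p = 0.070). Nid1 and its partner Lamc1 moved apart, their ratio per kb being 7.64 ± 0.296 in the male-labelled libraries and 20.7 ± 2.29 in the female-labelled ones.

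Agrn, which encodes agrin, read 229, 194 and 201 against 96.2, 93.0 and 109, a clear separation (log2 fold change -1.06, SE 0.09, limma adjusted p = 1.09e-05). Hspg2, which encodes perlecan, read 1718, 1104 and 1127 against 1795, 1761 and 1705, and male replicate 4 lay with the female-labelled libraries, inside their range. The log2 fold change of Hspg2 was 0.44 (SE 0.16, limma adjusted p = 0.0331). Without male replicate 4 it was 0.65 with an adjusted p of 5.73e-07, and without any 1 of the other 5 libraries it was 0.33 to 0.46 and no longer called (adjusted p 0.0724 to 0.107). With edgeR on the recovered reads it was 0.40 with an adjusted p of 0.0532. The ratio of Hspg2 to Agrn per kb rose from 3.05 ± 0.528 to 8.63 ± 0.878.

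Per kb of transcript Nid1 was followed by Itgb1 (414 ± 43.4 and 1011 ± 54.4) and Lamb1 (137 ± 20.3 and 143 ± 9.47) in both groups. In the male-labelled libraries Lamb1, Itga5 (124 ± 19.9) and Lamc1 (118 ± 7.70) lay within the spread of their neighbours in this order, followed by Hspg2 (92.9 ± 24.6). In the female-labelled ones Lamb1 and Hspg2 (124 ± 3.18) were followed by Itga5 (106 ± 14.3), Itgav (88.1 ± 3.04) and Lamc1 (70.6 ± 5.82). Itgb3 went from the eighth place (60.1 ± 2.30) to the seventeenth (2.95 ± 0.409), and Lama4 from the seventh (85.0 ± 11.5) to the eleventh (24.0 ± 2.26). Below Itgb1 the order turned with the length used. Per kb of coding sequence Lamc1 (187), Itga5 (173) and Itgb3 (147) stood above Lamb1 (144) in the male-labelled libraries, and Itgav (198) stood above Lamb1 (149.9) in the female-labelled ones. Itgb3 then went from the fifth place to the seventeenth and Lama4 from the ninth to the eleventh.

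Soluble and matrix ligands of integrins changed about as often in each direction: of 21 tested, 9 were higher and 10 lower, against 34.6% of all genes in each direction. Their median log2 fold change was -0.46, against 0.01 over all genes. Fibronectin (Fn1), the ligand of α5β1, read 7488, 5215 and 5301 against 6195, 6249 and 6121 and was not called (log2 fold change 0.07, limma adjusted p = 0.703). Male replicate 4 was its highest library, and Fn1 was called higher without it (0.24, adjusted p = 0.00107) and under quantile normalisation (0.51, adjusted p = 0.00296). The collagen IV chains Col4a1 and Col4a2, ligands of α1β1, rose by 0.46 and 0.74 on the log2 scale (limma adjusted p = 0.00274 and 3.61e-04) while Itga1 fell. The collagen I chains Col1a1 and Col1a2, ligands of α2β1 and α11β1, fell by 0.68 and 1.47 on the log2 scale (limma adjusted p = 2.01e-05 and 3.65e-06) along with Itga2 and Itga11. Of these collagen chains only Col1a2 has a false discovery rate under 0.05 in the authors' deposited table (0.0239, against 0.0685 to 0.356 for the others).

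Tenascin C (Tnc), a ligand of α9β1 and αv integrins, showed the largest rise among the named ligands. It read 112, 74.9 and 69.9 against 940, 808 and 790 (log2 fold change 3.32, SE 0.16, limma adjusted p = 6.81e-07). Nephronectin (Npnt), the ligand of α8β1, read 10.5, 9.68 and 9.11 against 62.0, 54.2 and 51.5 (log2 fold change 2.40, limma adjusted p = 2.56e-07), while Itga8 stayed near 2. In both genes the groups were far apart. Ligands of β3 integrins went both ways while Itgb3 fell. Osteopontin (Spp1) had means of 1368 and 376 (log2 fold change -1.82, limma adjusted p = 6.26e-05), and von Willebrand factor (Vwf), an endothelial product, read 40.3, 34.9 and 38.6 against 0.374, 0.530 and 0.570 (log2 fold change -4.71, limma adjusted p = 2.04e-08, or -6.28 with edgeR). Others of the list rose: thrombospondin 1 (Thbs1) had means of 444 and 2941, Ctgf 122 and 397, Cyr61 103 and 258 and Mfge8 264 and 500.4, with log2 fold changes of 2.73, 1.75, 1.33 and 0.92 (limma adjusted p = 5.73e-07, 1.30e-04, 1.24e-05 and 2.88e-06). The largest falls of the list were those of Tgfbi (means 335 and 1.96, log2 fold change -6.82) and Emilin1 (means 320 and 46.5, log2 fold change -2.76) beside Vwf, with limma adjusted p of 7.94e-09 and 2.04e-08. Thbs1, Ctgf, Cyr61, Mfge8, Tgfbi and Emilin1 were picked out after their values were seen. Tgfb1, whose latent form is the ligand of αvβ8, had means of 225 and 74.6 (log2 fold change -1.58, limma adjusted p = 2.36e-06), lower like Itgb8. Spp1 and Col1a1 also stand among the cholangiocyte and the fibroblast markers used here.

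Of 10 cell-surface ligands 1 was higher and 7 were lower, against 34.6% of all genes in each direction. Vcam1, the ligand of α4β1, read 2972, 2454 and 2505 against 819, 848 and 930 (log2 fold change -1.61, limma adjusted p = 1.79e-06), opposite to Itga4. Icam1 and Icam2, ligands of β2 integrins, had means of 229 and 21.4 in the male-labelled libraries and 100.2 and 1.20 in the female-labelled ones (log2 fold changes -1.19 and -3.34, limma adjusted p = 1.93e-05 and 9.22e-07, with -4.15 for Icam2 by edgeR). E-cadherin (Cdh1), a ligand of αEβ7, stayed near 1 and was not called (limma adjusted p = 0.828).

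Of the other basement membrane genes 17 of 21 in the table were tested, and 10 were higher and 6 lower, against 34.6% of all genes in each direction, with a median log2 fold change of 0.46. The list includes Col4a1 and Col4a2 from above. The largest falls in it were those of the vascular multiplexins Col15a1, with means of 470 and 23.4 (log2 fold change -4.27, limma adjusted p = 1.71e-08), and Col18a1, with means of 1450 and 90.8 (log2 fold change -3.98, limma adjusted p = 1.50e-08). Its largest rises were those of netrin 4 (Ntn4), which binds laminin γ chains, with means of 3.64 and 54.7 (log2 fold change 3.59, limma adjusted p = 9.25e-08), and Smoc2, with means of 0.566 and 5.04 (log2 fold change 1.94, limma adjusted p = 1.08e-05). Col7a1 and the collagen IV chain Col4a5 rose by 1.86 and 1.53 on the log2 scale (limma adjusted p = 1.21e-04 and 1.56e-05). These 6 genes were picked out after their values were seen. Col15a1 and Col18a1 were thus lower, like Lama4 and Lama5, while Ntn4 and the tested collagen IV chains were higher, like Nid1.

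Inside the cell, talin and kindlin bind the β tail and the complex of ILK, PINCH (Lims1, Lims2) and parvin links it to actin. Of 23 cytoplasmic partners tested 13 were higher and 6 lower, against 34.6% of all genes in each direction, with a median log2 fold change of 0.20. Their median absolute log2 fold change was 0.44, against 0.46 over all genes. The authors' deposited table gives a false discovery rate under 0.05 for 5 of the 24 listed, against 25.8% of all its genes. Of the partners named here, these include Ilk, Parva, Fermt1 and Fermt3, but not Tln1, Parvb, Ptk2, Lims1, Lims2 or Fermt2. The partners and receptors named here were chosen by role after their values were seen. Tln1, which encodes talin, read 823, 675 and 673 against 1040, 1026 and 1012 (log2 fold change 0.51, limma adjusted p = 8.93e-04). Ilk rose by 0.82, Parva by 0.84, Parvb by 0.57 and the focal adhesion kinase gene Ptk2 by 0.63 on the log2 scale, with limma adjusted p of 2.94e-05, 6.07e-05, 1.27e-04 and 5.40e-05. Within the ILK complex Lims1 fell by 0.40 (limma adjusted p = 0.00198) and Lims2 was not called (0.08, adjusted p = 0.517), so that the parvins and Ilk rose but the PINCH genes did not. Both kindlin genes tested were lower: Fermt2 fell by 0.38 (limma adjusted p = 0.0113), or by 0.25 without male replicate 4, and the blood-cell kindlin Fermt3, with means of 6.06 and 1.88, fell by 1.27 (limma adjusted p = 2.02e-04). The kindlin gene Fermt1 was too low to test, at 0 in the male-labelled libraries and 0.177 to 0.415 in the female-labelled ones. It has a false discovery rate of 0.0016 in the authors' deposited table.

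Of 13 tetraspanins and other matrix receptors 3 were higher and 10 lower, against 34.6% of all genes in each direction, with a median log2 fold change of -0.63. Cd151, the tetraspanin that associates with α3β1 and α6β1, was among the 3, reading 172, 185 and 175 against 304, 303 and 301 (log2 fold change 0.77, limma adjusted p = 5.57e-06). The other 2 were the syndecan Sdc2 and the collagen receptor Ddr2. Dag1, which encodes the laminin receptor dystroglycan, had means of 587 and 361 (log2 fold change -0.70, limma adjusted p = 3.81e-05), and Bcam, a receptor of the laminin α5 chain, had means of 64.4 and 22.9 (log2 fold change -1.45, limma adjusted p = 6.32e-06). Bcam and Lama5 were thus lower in the same libraries, whereas Dag1 fell where Lama2, its ligand in muscle, rose.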

How the data were processed

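Poly(A) RNA was sequenced in 6 libraries. Bowtie2, RSEM, edgeR and the build mm39 are named in the submitters' processing notes, with no role or version. The deposited signal values are read counts that the authors divided by 1 factor per library: 100% of values were whole multiples of a library's step within 0.01 read. Per the file headers, the authors also deposited a score, their signed fold change, and p-value columns with p and false discovery rate.

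limma 3.58.1 (R 4.3.3, eBayes with intensity trend) was run on log2(value + 1) over the 12568 genes that reached 1 in 3 or more libraries, with Benjamini-Hochberg adjustment over all of them and a threshold of 0.05. Fold changes on this scale understate low genes. Genes that reached 1 in only 1 group passed this filter through the group in which they were high. Among the members these were Itgb7, Itgb8 and Lama3, and among the other named genes they include Vwf and Smoc2. Scripts were tested on simulated data. The members and the lists were chosen with earlier results of these data known. Full values are given for members of a known pair or trimer with a mean of at least 10 in either group. The 4 nidogen and proteoglycan genes and some weaker chains were added after their values were seen. Among other genes, the ligands of members are named. Alternatives were RLE size factors, quantile normalisation, a pseudocount of 0.1, no filter, a minimum of 10 reads per library, the replicate number as a block, a fold-change threshold, edgeR 4.0.16 and DESeq2 1.42.0 on the recovered reads, and each library left out. Because the annotation used here is GRCm38, gene coordinates are given only for the promoter windows. The values of 1 of the 36 genes, which is included in the counts, are not reported here.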

Additional observations from a re-analysis of the deposited data

How the results depend on the processing

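Over the 33 tested members, the log2 fold change was recomputed 460 times: 434 values kept their direction and their side of the threshold, 16 lost the call, 3 gained it and 7 changed sign, and 24 of the members kept both throughout. With an added threshold of 1 on the absolute log2 fold change, 2589 genes were called, with 4 members higher and 11 lower. Counts over all genes were 8236 to 9085 under the other settings and 7731 to 9496 with 1 library left out, the highest without male replicate 4. With 1 library left out, 9 to 13 members were higher and 15 to 17 lower. With the replicate block, 8314 genes, 11 higher and 17 lower members were called. Same-numbered libraries deviated from their group means with correlations of -0.094, -0.03 and -0.17. With 3 libraries per group, whose deviations are tied to each other, these values cannot decide whether the replicate numbers pair the libraries. The genes whose sign turned when 1 library was left out were not called to begin with: Itga10 ranged from -0.0634 to 0.0920, Itga8 from -0.0505 to 0.1986, Lamb1 from -0.0055 to 0.1793, Lamb2 from -0.0601 to 0.2718, Fn1 from -0.0260 to 0.2350, Cdh1 from -0.0195 to 0.1503 and Lims2 from -0.0102 to 0.1668. The cause was not tested.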
